A study of Mus musculus with 4 samples.

Results

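U3 is a nucleolar RNA that vertebrate cells use to make the small ribosomal subunit, while U1, U2, U11 and U12 are the small nuclear RNAs (snRNAs) of the spliceosome. Their recovery was compared between an immunoprecipitation with an antibody against SAFB (SAFB RIP) and a control precipitation with IgG (IgG RIP). The entries were chosen by gene symbol from the deposited table, and the symbols were Rnu3b1, Rnu3b2, Rnu3b3 and Rnu3b4 for U3 and Rnu1a1, Rnu2-10, Rnu11 and Rnu12 for the snRNAs. All 8 symbols were found, with 12 entries among the 52189 identifiers of the table. Each U3 symbol stood on 2 entries.

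SAFB (scaffold attachment factor B) is found in the nuclear matrix and can bind both nucleic acids, and the precipitation collects the RNAs that associate with it. The cells were AML12, a mouse hepatocyte line that carries a transforming growth factor alpha transgene. All libraries came from the same culture medium, with 10% fetal bovine serum, an insulin, transferrin and selenium supplement and 0.1 µM dexamethasone. The cells were crosslinked with ultraviolet light, and the lysate of their isolated nuclei was split between the antibody against SAFB (2 libraries) and control IgG (2 libraries). No genotype or treatment differed between the groups, and the labels do not say whether replicates came from separate cultures, so p-values measure only the spread between these libraries.

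Values are TPM, a length-corrected share of each library on a common scale. Read depth cannot be recovered from them, so it is unknown here and values carry no counting interval. Entries above 0 numbered 22389 and 21006 in the SAFB libraries, against 16031 and 17278 in the IgG libraries. The cause of this difference was not tested, and an entry of 0 in an IgG library is not read as absence. Of 10 hepatocyte marker genes, all were above 0 in every library, among them Alb at 372 and 381 TPM in the SAFB RIP and 284 and 274 TPM in the IgG RIP. The leukocyte gene Ptprc was at 0.276 TPM at most, the endothelial gene Pecam1 at 0.771 TPM at most and the fibroblast gene Col1a1 at 1.76 TPM at most. In contrast, the bile duct marker Krt19 was at 311 TPM or more in every library. Protein-coding genes held 83.7% of TPM in both SAFB libraries, against 68.0% and 67.8% in the IgG libraries. After rescaling to protein-coding genes alone, the log2 fold change of Rnu1a1 was 0.20, that of Rnu2-10 -1.40 and that of Rnu12 0.81, none of which passed, and the values for U3 are given with its sum.

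U3 is a box C/D RNA. It pairs with the ribosomal RNA precursor in the nucleolus and is needed for the early cleavages that free the RNA of the small subunit. U1 pairs with the 5′ splice site and U2 with the branch point of most introns, and U11 and U12 do the same for the rare minor class of introns. RNA polymerase II transcribes all of them from short promoters of their own, and the snRNAs pick up a ring of Sm proteins in the cytoplasm before they return to the nucleus.

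The sequences are shown because the table lists several copies of the same RNA, and copies with the same letters cannot be told apart by their reads. They are the transcripts of GENCODE release M21 on GRCm38 (mm10), written 5′ to 3′ on the sense strand. In U3 the capitals mark the box C core (TGATGA) and the last match to box D (CTGA). In U1 they mark the letters that pair with the 5′ splice site (ACTTACCTG), in U2 and U12 the branch point pairing letters (GTAGTA and AAGGAA), and in all 4 snRNAs the core of the Sm site (ATTTNT).
Rnu3b1, chr11:87443237-87443452, plus strand: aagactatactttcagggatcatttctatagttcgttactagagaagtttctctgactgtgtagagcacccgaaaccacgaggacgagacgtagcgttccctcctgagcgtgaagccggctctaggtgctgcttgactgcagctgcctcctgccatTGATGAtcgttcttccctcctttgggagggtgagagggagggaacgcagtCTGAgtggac
Rnu3a, chr10:40258467-40258680, plus strand: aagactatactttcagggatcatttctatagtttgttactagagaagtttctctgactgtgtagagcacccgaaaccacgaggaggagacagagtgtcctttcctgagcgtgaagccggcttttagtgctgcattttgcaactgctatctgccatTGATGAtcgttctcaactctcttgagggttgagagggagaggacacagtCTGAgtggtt
Rnu1a1, chr11:87422867-87423030, plus strand: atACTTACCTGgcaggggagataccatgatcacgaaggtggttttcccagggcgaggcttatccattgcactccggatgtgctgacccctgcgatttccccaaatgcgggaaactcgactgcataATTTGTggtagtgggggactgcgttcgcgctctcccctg
Rnu2-10, chr11:101658238-101658428, plus strand: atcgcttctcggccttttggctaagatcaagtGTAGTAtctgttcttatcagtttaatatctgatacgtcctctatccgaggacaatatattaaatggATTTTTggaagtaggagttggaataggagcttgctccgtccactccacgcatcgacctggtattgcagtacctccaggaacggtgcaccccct
Rnu11, chr4:132270080-132270213, minus strand: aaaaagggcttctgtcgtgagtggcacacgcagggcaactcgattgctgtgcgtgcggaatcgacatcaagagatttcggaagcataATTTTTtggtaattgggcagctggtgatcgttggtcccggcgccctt
Rnu12, chr15:83149644-83149794, plus strand: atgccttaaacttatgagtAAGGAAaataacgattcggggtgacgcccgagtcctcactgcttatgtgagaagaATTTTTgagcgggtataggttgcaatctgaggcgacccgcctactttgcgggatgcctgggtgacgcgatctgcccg

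The longer models of Rnu3b1, Rnu3b2, Rnu3b3 and Rnu3b4 have the same 216 bases, at 100% identity. Each copy also has a shorter model of 215 bases that starts at the same base and lacks only the last one, which gives 8 U3 entries at 4 places. Rnu3a, the U3 gene on chromosome 10, is 86.6% identical to Rnu3b1 over its length and matches it base for base through the first 33 bases. In both U3 genes the box C core lies near the 3′ end, at positions 157 to 162 of Rnu3b1, and the last box D letters lie at positions 207 to 210. In U1 the splice site letters are at positions 3 to 11 and the Sm core at 126 to 131. The search covered the sense strand, and the motifs marked in one RNA do not overlap each other. Among 2888 annotated snRNA and snoRNA genes with transcripts of at most 300 bases, 14.5% held the box C core, 57.2% the box D letters, 1.90% the U1 letters, 2.63% the U2 letters and 3.05% the U12 letters. The Sm core letters are common, at 32.5% of these RNAs, and also occur in U3 at position 22, so a match is only a description.

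The 4 U3 copies lie in a row on chromosome 11, from 87443237 to 87471583, a span of 28347 bases. After Rnu3b1 (ENSMUSG00000098943) come Rnu3b3 (ENSMUSG00000099291) at chr11:87448627-87448842, Rnu3b4 (ENSMUSG00000104896) at chr11:87462286-87462501 and Rnu3b2 (ENSMUSG00000105115) at chr11:87471368-87471583, all on the plus strand. Rnu1a1 ends 20206 bases before the first of them. All 5 lie in introns of Tex14, a testis-expressed gene, on the same strand. Tex14 itself was at 1.62 and 2.56 TPM in the SAFB RIP, against 2.86 and 2.92 TPM in the IgG RIP, and did not pass (log2 fold change -0.35, limma, Benjamini-Hochberg adjusted p = 0.448). Rnu2-10 and Rnu12 overlap no other annotated gene. Rnu11 lies on the opposite strand within the exon of Gm28872, a long intergenic noncoding RNA that had 0.181 and 3.80 TPM in the SAFB RIP and was listed at 0 in both IgG libraries. The use of strand in counting is not given in the sources used here, so the values of Rnu11 are uncertain.

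U3 was lower in the SAFB RIP, and the 3 snRNA entries tested did not pass the test in either direction. Rnu1a1 and Rnu2-10 are each only 1 of several entries with the same letters. Summed over those entries, both SAFB libraries lay below both IgG libraries for U1 and for U2, as for 21.4% of all genes tested. The SAFB RIP means were 0.697 and 0.375 of the IgG RIP means, against 0.118 for summed U3. The value for U2 rests largely on IgG RIP replicate 2. That U2 sum was 18.5 and 20.8 TPM in the SAFB RIP, against 22.9 and 81.5 TPM in IgG RIP replicates 1 and 2. The U1 and U2 sums were not entered in a fit. The test covered genes that reached 1 TPM in 2 or more libraries and used log2(TPM + 1), which understates the change of low genes. Of the 12 entries 7 were tested, namely the longer model of each U3 copy and Rnu1a1, Rnu2-10 and Rnu12. All 4 U3 entries tested passed as lower and 0 as higher (limma, Benjamini-Hochberg adjusted p under the threshold of 0.05), while all 3 snRNAs tested did not pass. In the same comparison 8.30% of the 16647 genes tested were called lower and 29.8% higher, or 17.6% lower and 16.4% higher once each library was centred on its median. Among the 1220 tested genes with transcripts of at most 300 bases the shares were 6.23% lower and 23.1% higher. The 4 U3 entries rest on the same letters and therefore count as 1 RNA seen 4 times, not as 4 separate results. Both precipitations were made from a split lysate, and TPM is a share of each library. A fold change is thus a difference in the share of the recovered RNA, not in the amount per cell.

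**Figure D1:**
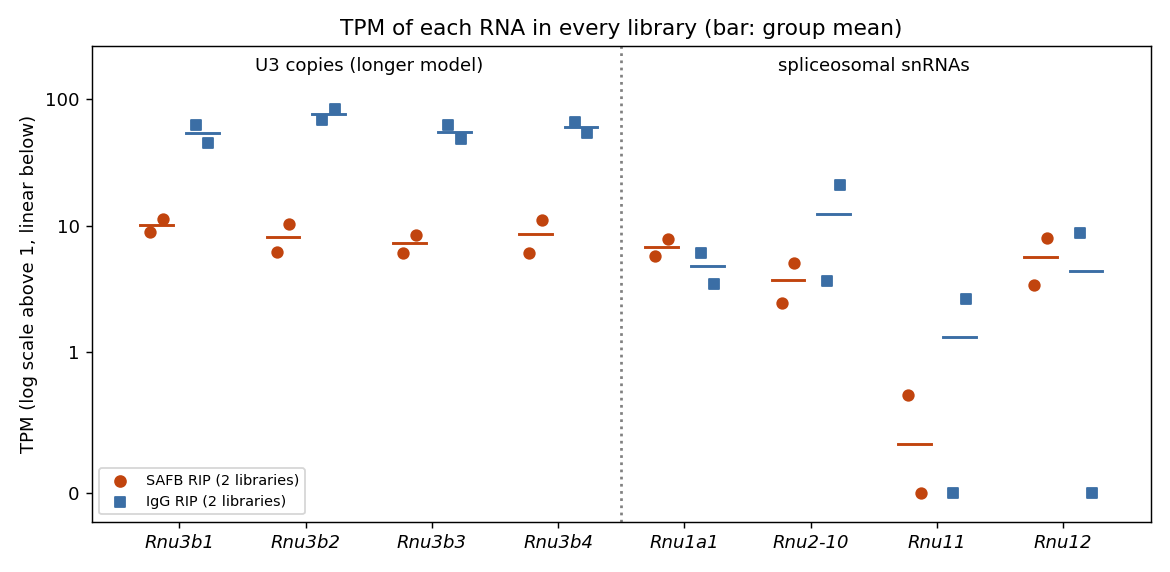
TPM (vertical axis, logarithmic above 1 and linear below) of the 8 RNAs in each of the 4 libraries, with 2 points and a bar at the mean for each group; for U3 the longer model of each copy is plotted. The U3 copies lie between 6.09 and 11.2 TPM in the SAFB RIP and between 44.9 and 83.6 TPM in the IgG RIP, while the groups overlap for Rnu1a1, Rnu2-10, Rnu11 and Rnu12.

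Rnu3b2 had 6.17 and 10.2 TPM in the SAFB RIP, against 67.4 and 83.6 TPM in the IgG RIP. Both SAFB libraries lay below both IgG libraries, and the log2 fold change was -3.09 ± 0.29 (SE; limma, Benjamini-Hochberg adjusted p = 0.00605), the lowest of the copies. Rnu3b3 had 6.09 and 8.50 TPM in the SAFB RIP, against 62.1 and 47.9 TPM in the IgG RIP, a log2 fold change of -2.76 ± 0.27 (SE; adjusted p = 0.00618). Rnu3b4 had 6.09 and 11.1 TPM in the SAFB RIP, against 65.7 and 53.2 TPM in the IgG RIP, a log2 fold change of -2.70 ± 0.33 (SE; adjusted p = 0.00874). The groups of these copies did not overlap either. Rnu3b1 had 8.97 and 11.2 TPM in the SAFB RIP, against 61.6 and 44.9 TPM in the IgG RIP, a log2 fold change of -2.28 ± 0.25 (SE; adjusted p = 0.00760). Without overlap and with the SAFB libraries below, the U3 copies stood among 21.4% of all genes tested. The share was 19.4% of those with short transcripts and 29.2% of the snoRNA class. Of all genes tested, 60 had a log2 fold change as low as that of Rnu3b1 or lower, and 22 as low as that of Rnu3b2 or lower. The U3 copies are counted in these numbers. Values as low as that of Rnu3b1 were held by 0.360% of all genes tested, 3.28% of those with short transcripts and 5.17% of the snoRNA class. No test compared the copies with each other.

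The shorter models show how the table divides U3. Those of Rnu3b1, Rnu3b3 and Rnu3b4 were listed at 0 in 3 of the 4 libraries and at 32.5, 28.4 and 30.5 TPM in IgG RIP replicate 2. The shorter model of Rnu3b2 was listed at 0 throughout. In IgG RIP replicate 2 the shorter models together held 28.5% of the U3 TPM. None of them entered the test. With both models of each copy summed, a treatment chosen after the data had been seen, the copies became more alike in IgG RIP replicate 2, at 77.3 TPM for Rnu3b1, 83.6 for Rnu3b2, 76.3 for Rnu3b3 and 83.7 for Rnu3b4. The log2 fold changes then ran from -2.67 for Rnu3b1 to -3.09 for Rnu3b2 and Rnu3b3, and all 4 remained lower (limma, Benjamini-Hochberg adjusted p between 0.00510 and 0.00749). The size given for Rnu3b1 alone thus depends in part on which of 2 models, 1 base apart, was given the value.

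**Figure D2:**
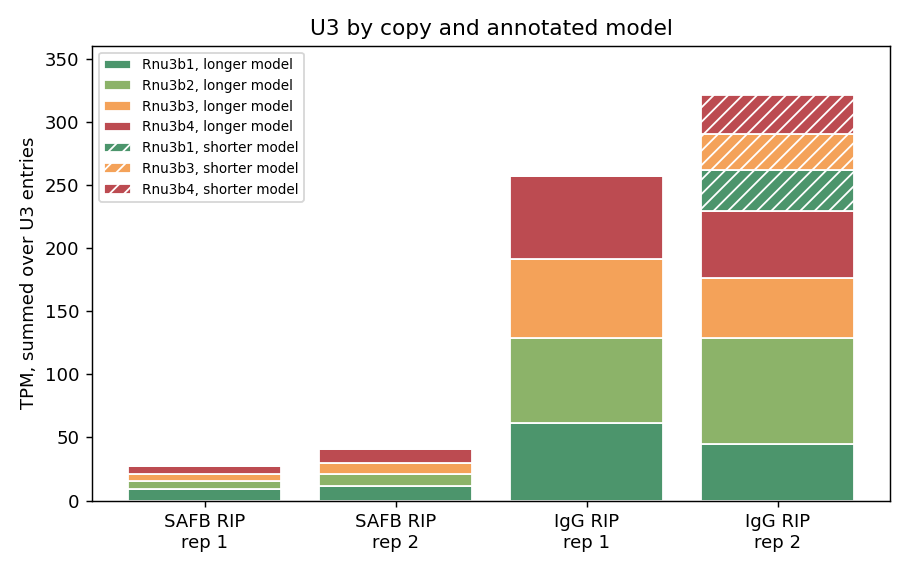
TPM of the 8 U3 entries stacked in each library, with the longer model of each copy in plain colour and the shorter model hatched. The stacks reach 27.3 and 41.1 TPM in the SAFB RIP and 257 and 321 TPM in the IgG RIP, and hatched parts appear in IgG RIP replicate 2 alone.

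Because the copies have the same sequence, their sum is the quantity that the reads can measure. Summed over the 8 entries, U3 stood at 27.3 and 41.1 TPM in the SAFB RIP, against 257 and 321 TPM in the IgG RIP. The SAFB RIP mean was 34.2 ± 9.71 TPM and the IgG RIP mean 289 ± 45.4 TPM (SD, n = 2 each). Entered as 1 gene, U3 had a log2 fold change of -3.06 ± 0.24 (SE; limma, Benjamini-Hochberg adjusted p = 0.00487). Over all genes the median log2 fold change was 0.46, and after median centring U3 stood at -3.52 (adjusted p = 0.00448). Rescaled to protein-coding genes alone, the single copies stood between -2.56 and -3.37.

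Rnu3a, the other U3 gene, was not among the entries chosen, and it is named here after its values had been seen. It had 1.32 and 2.88 TPM in the SAFB RIP, against 6.48 and 16.2 TPM in the IgG RIP. The groups did not overlap, but the spread of the IgG libraries was wide and Rnu3a did not pass, with a log2 fold change of -1.92 ± 0.56 (SE; limma, Benjamini-Hochberg adjusted p = 0.0567).

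The snRNAs were low in every library, at 21.0 TPM or less. Rnu1a1, a gene for U1, had 5.79 and 7.77 TPM in the SAFB RIP, against 6.06 and 3.47 TPM in the IgG RIP. The groups overlapped, and the log2 fold change of 0.46 ± 0.40 (SE; limma, Benjamini-Hochberg adjusted p = 0.409) equalled the median of all genes, so that it stood at -0.00169 after median centring. Rnu2-10, a gene for U2, had 2.47 and 5.03 TPM in the SAFB RIP, against 3.67 and 21.0 TPM in the IgG RIP. Its value in IgG RIP replicate 2 was 5.73 times that in IgG RIP replicate 1, and the log2 fold change of -1.15 ± 0.85 (SE; adjusted p = 0.337) rests on that library. Without IgG RIP replicate 2 it was -0.03, and without IgG RIP replicate 1 it was -2.27 and passed as lower (adjusted p = 0.00333). With 1 IgG library left the fit has 1 residual degree of freedom, so this p rests on the spread of the SAFB libraries and on limma's shared variance, and the lone library is assumed to vary alike.

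The snRNAs of the minor spliceosome were close to the limit of what the table lists. Rnu12, the gene for U12, had 3.37 and 7.92 TPM in the SAFB RIP, against 8.76 TPM in IgG RIP replicate 1 and an entry of 0 in IgG RIP replicate 2. The log2 fold change was 0.999 ± 1.19 (SE; limma, Benjamini-Hochberg adjusted p = 0.544). It changed sign to -0.64 without IgG RIP replicate 2, the library listed at 0, and passed as higher, at 2.64 (adjusted p = 0.00449), without IgG RIP replicate 1. That p, too, sets the SAFB libraries against a single IgG library, the one listed at 0. Rnu11, the gene for U11, was listed at 0.698 TPM and at 0 in the SAFB RIP, against 0 and 2.66 TPM in the IgG RIP, and did not enter the test. Without a filter its log2 fold change was -0.55 ± 0.74 (SE; adjusted p = 0.604). For neither U11 nor U12 do these libraries give a direction.

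**Figure D3:**
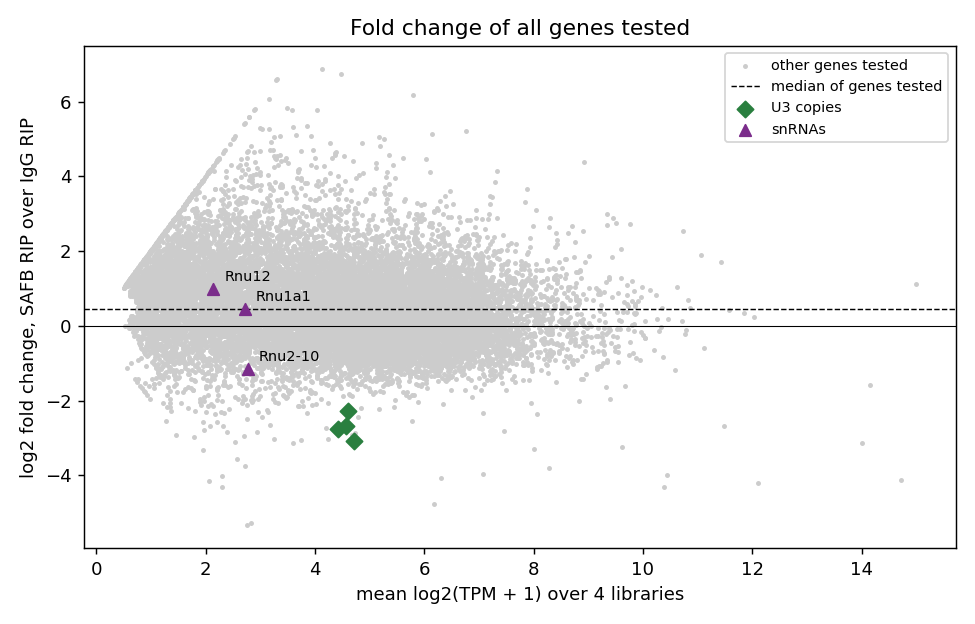
Log2 fold change of the SAFB RIP over the IgG RIP (vertical axis) against the mean log2(TPM + 1) over 4 libraries (horizontal axis) for the 16647 genes tested, with the U3 copies as diamonds and 3 snRNAs as triangles; the dashed line is the median of 0.46. The U3 copies lie between -2.28 and -3.09, where 60 genes are as low as Rnu3b1 or lower, and Rnu1a1 lies on the median.

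The snRNA genes too exist in many annotated copies. A copy was counted where the transcript aligned to the chosen RNA with at least 90% identity over at least 90% of its length, which gave 35 entries for U1, 14 for U2, 16 for U3, 4 for U12 and 2 for U11, each with the chosen entries included. For U1, 7 entries had the same letters as Rnu1a1, and for U2 4 had those of Rnu2-10. Of the 34 other U1 entries, 22 were listed at 0 in every library, 7 were tested, 2 passed as higher and 1 as lower. Over all genes tested, 29.8% were called higher and 8.30% lower. The 3 other U1 copies with the highest mean were Gm22068, Gm22634 and Gm22513. Gm22068, with the same letters as Rnu1a1, had 4.78 and 2.44 TPM in the SAFB RIP, against 3.40 and 8.93 TPM in the IgG RIP, and Gm22634, also the same, had 1.54 and 4.65 TPM, against 10.4 and 0.937 TPM in the IgG RIP. Both pairs of groups overlapped. Gm22317, a further U1 copy with these letters, was the copy called lower, at 0.454 and 0 TPM in the SAFB RIP, against 3.12 and 6.08 TPM in the IgG RIP. Gm23804, again with the same letters, was called higher, at 1.05 and 1.11 TPM in the SAFB RIP and an entry of 0 in both IgG libraries. Gm26244, with 99.4% identity, was called higher too, at 2.95 and 1.51 TPM in the SAFB RIP and an entry of 0 in both IgG libraries. These 3 were named because they passed, after their values had been seen. Each of them reached the filter only through the group where it was high, so that group fixed the direction of its call, and the calls are given as a description.

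Summed over all 35 entries, U1 stood at 25.2 and 28.8 TPM in the SAFB RIP, against 23.0 and 28.3 TPM in the IgG RIP. The groups overlapped, and the log2 fold change was 0.07 ± 0.21 (SE; limma, Benjamini-Hochberg adjusted p = 0.799), or -0.39 after median centring. Summed over only the 7 entries with the same letters, U1 stood at 13.6 and 16.0 TPM in the SAFB RIP, against 23.0 and 19.4 TPM in the IgG RIP. These groups did not overlap, and the SAFB RIP mean was 0.697 of the IgG RIP mean, against 0.118 for summed U3. The sum over the 7 entries was not entered in a fit.

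Of the 13 other U2 entries, 9 were tested, 0 passed as higher and 1 as lower, against 29.8% and 8.30% of all genes. That one, Gm23971, has the same letters as Rnu2-10 and lies at chr11:101645740-101645930. It had 5.72 and 3.82 TPM in the SAFB RIP, against 11.9 and 23.3 TPM in the IgG RIP (log2 fold change -1.64 ± 0.44, SE; limma, Benjamini-Hochberg adjusted p = 0.0464). Rnu2-10, Gm24950 and Gm23849 have the same letters and did not pass. How reads were divided among these entries is not known, so the call is not a result about Gm23971 alone. Gm25939, a U2 copy on chromosome 1 with 98.4% identity and the highest mean of the other copies, had 8.91 and 24.1 TPM in the SAFB RIP, against 16.9 and 6.52 TPM in the IgG RIP. Summed over 14 entries, U2 stood at 37.0 and 65.1 TPM in the SAFB RIP, against 45.3 and 121 TPM in the IgG RIP. The groups overlapped (log2 fold change -0.59 ± 0.55, SE; adjusted p = 0.441), and the IgG libraries differed 2.67-fold. The 4 entries with the letters of Rnu2-10 summed to 18.5 and 20.8 TPM in the SAFB RIP, against 22.9 and 81.5 TPM in the IgG RIP, without overlap. This sum over 4 entries was not entered in a fit. Without IgG RIP replicate 1 the sum over 14 entries passed as lower at -1.28 (adjusted p = 0.0119), and without IgG RIP replicate 2 it stood at 0.11. Only 1 of the 8 entries counted as U3 copies outside the Rnu3b genes was above 0 in any library. This was Gm22865, which had 1.87 and 0.688 TPM in the SAFB RIP and was listed at 0 in both IgG libraries. Rnu3a, 86.6% identical to Rnu3b1, did not meet the definition of a copy and is not among them.

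**Figure D4:**
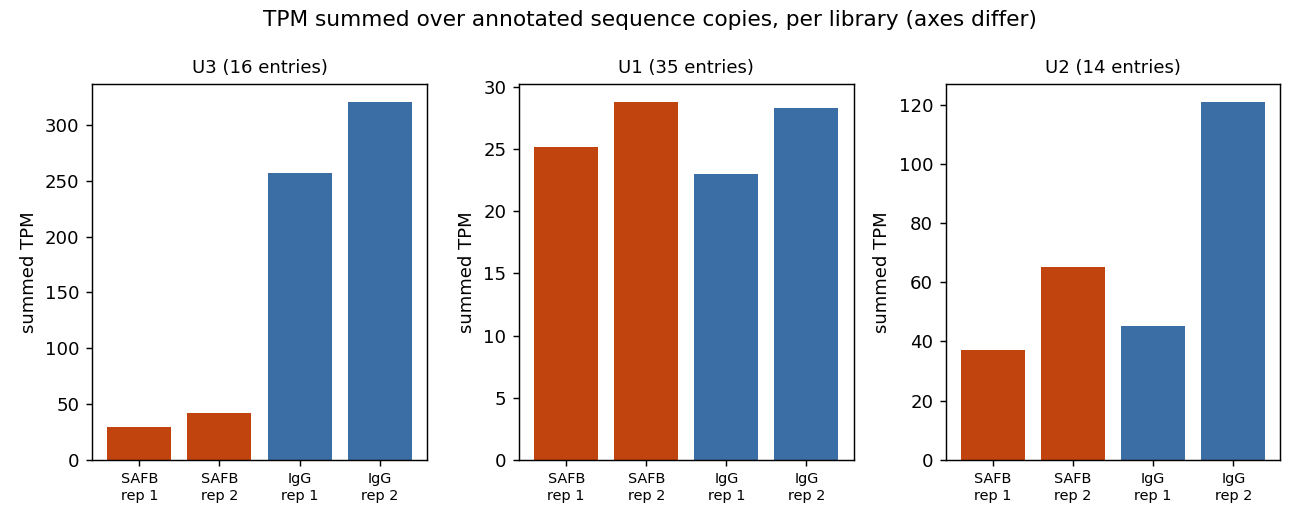
TPM summed over the annotated entries counted as sequence copies of U3, U1 and U2 (vertical axes, which differ between panels) in each of the 4 libraries. Rnu3a did not meet the definition of a copy and is not in the U3 sum. U3 reaches 29.2 and 41.7 TPM in the SAFB RIP and 257 and 321 TPM in the IgG RIP, whereas the groups overlap for U1 and U2.

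A ratio of 2 RNAs within the same library does not depend on how that library was scaled. Summed U3 was 4.72 and 5.28 times Rnu1a1 in the SAFB RIP, against 42.4 and 92.4 times in the IgG RIP. Against all U1 copies the ratio was 1.09 and 1.42 in the SAFB RIP and 11.2 and 11.3 in the IgG RIP, which are close within each group. Against all U2 copies it was 0.738 and 0.631 in the SAFB RIP, where U2 exceeded U3, and 5.66 and 2.65 in the IgG RIP, where U3 exceeded U2. Against Rnu2-10 alone it was 11.05 and 8.17 in the SAFB RIP and 70.0 and 15.3 in the IgG RIP. Against Rnu12 it was 8.11 and 5.19 in the SAFB RIP and 29.3 in IgG RIP replicate 1, and it has no value in the library where Rnu12 was listed at 0. In each case the SAFB libraries lay below the IgG libraries that gave a value. On the log2 scale the mean difference, SAFB RIP minus IgG RIP, was -3.65 against Rnu1a1, -3.18 against all U1 copies, -1.78 against Rnu2-10 and -2.51 against all U2 copies. Rnu1a1 is 1 of 7 entries with the same letters and Rnu2-10 is 1 of 4. Their ratios therefore set summed U3 against only a part of U1 or U2. The sums over all copies also hold entries with other letters. Of the other U1 entries, 7 were above 0 only in the SAFB RIP, which lowers the U3 ratio there. No ratio was taken against the same-letter sums of U1 and U2. Their SAFB RIP means were 0.697 and 0.375 of the IgG RIP means, against 1.05 and 0.613 for all copies. The U2 values rest largely on IgG RIP replicate 2. U3 therefore differs less from the same-letter sums than from all copies. With 2 libraries a group the smallest two-sided p of an exact permutation test is 0.33, so the difference between U3 and the snRNAs is given as values and was not tested.

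Order within a group followed the same line. In the SAFB RIP the U3 copies, at means of 7.29 to 10.1 TPM, stood next to Rnu1a1 (6.78 TPM), Rnu12 (5.64 TPM) and Rnu2-10 (3.75 TPM), with Rnu11 (0.349 TPM) last. There the values of Rnu1a1 and Rnu12 overlapped those of Rnu3b2, Rnu3b3 and Rnu3b4 but lay below those of Rnu3b1. In the IgG RIP every U3 copy, at means of 53.2 to 75.5 TPM, stood above Rnu2-10 (12.3 TPM), Rnu1a1 (4.76 TPM), Rnu12 (4.38 TPM) and Rnu11 (1.33 TPM).

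The RNAs whose profile over the 4 libraries was most like that of summed U3 were found among 4400 other genes with a mean of at least 50 TPM, by the Euclidean distance between centred log2(TPM + 1) values. They were Gm42418 (distance 0.25), the predicted miRNA gene Gm23935 (0.29), Gm26917 (0.30), Rmrp (0.39) and the mitochondrial gene mt-Nd6 (0.52). Gm42418 and Gm26917 are annotated as long intergenic noncoding RNAs, and Rmrp is the RNA of RNase MRP, which also acts on the ribosomal RNA precursor. Gm26917 had 5188 and 5884 TPM in the SAFB RIP, against 41872 and 57265 TPM in the IgG RIP. Whether the reads at these predicted genes come from such transcripts was not tested. Gm42418 had 228 and 287 TPM in the SAFB RIP, against 2194 and 2683 TPM in the IgG RIP. Rmrp had 931 and 1371 TPM in the SAFB RIP, against 6207 and 8550 TPM in the IgG RIP. For Rnu1a1 the nearest were Iqce, Igsf5, Igf2bp2, Trappc12 and Tmem234, at distances of 0.09 to 0.18, and none of these 5 passed the test. With 4 libraries such likeness is a description of level and direction only.

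Other noncoding RNAs of the same machinery were tested beside them. Of 22 listed symbols 15 were found and 9 genes were tested, of which 1 passed as higher, 4 as lower and 4 did not pass, against 29.8% called higher and 8.30% lower over all genes. After median centring the counts were the same, against 16.4% higher and 17.6% lower. The median log2 fold change of the tested genes was -0.66, against 0.46 over all genes. Scarna2, a small Cajal body RNA, the class that guides modification of snRNAs, had 77.0 and 87.6 TPM in the SAFB RIP, against 1005 and 1367 TPM in the IgG RIP (log2 fold change -3.82 ± 0.18, SE; limma, Benjamini-Hochberg adjusted p = 0.00373). Rn7sk, the RNA polymerase III transcript that holds the elongation factor P-TEFb inactive, fell by 1.57 on the log2 scale (adjusted p = 0.0195). Scarna10 had 255 and 222 TPM in the SAFB RIP, against an entry of 0 in IgG RIP replicate 1 and 1569 TPM in IgG RIP replicate 2, and did not pass. Rnu6, a gene for U6, the catalytic snRNA, was the gene called higher. It had 3.91 and 5.11 TPM in the SAFB RIP and was listed at 0 in both IgG libraries, so that it entered the test only through the SAFB libraries and no fold is given.

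The mRNAs for the partner proteins of these RNAs were found in both directions. For each list below the reference is the 29.8% of all genes called higher and the 8.30% called lower, and for the counts after median centring it is 16.4% higher and 17.6% lower. Of 5 tested genes for proteins of the U3 particle 1 passed as higher, 0 as lower and 4 did not pass, and after median centring 0 passed as higher and 2 as lower. Nop56, which encodes a core box C/D protein, had 156 and 148 TPM in the SAFB RIP, against 94.3 and 95.7 TPM in the IgG RIP (log2 fold change 0.67 ± 0.10, SE; limma, Benjamini-Hochberg adjusted p = 0.0121), and stood at 0.21 after median centring, where it did not pass. Fbl, the gene for the methyltransferase fibrillarin, had 48.3 and 48.5 TPM in the SAFB RIP, against 60.5 and 72.0 TPM in the IgG RIP. It did not pass as deposited, at -0.44, and passed as lower after median centring, at -0.90. Nop58, whose product pairs with that of Nop56, did not pass at 1.16 ± 0.66 (SE), and its groups overlapped.

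Of 39 tested genes for the small subunit processome, the large particle that forms around U3 on the ribosomal RNA precursor, 17 passed as higher, 1 as lower and 21 did not pass, with a median log2 fold change of 0.56. After median centring 9 passed as higher and 9 as lower, so that the excess of higher genes depends on the scaling. Utp3 had 115 and 103 TPM in the SAFB RIP, against 5.84 and 11.8 TPM in the IgG RIP, and had the highest fold change among those that passed (log2 fold change 3.55 ± 0.34, SE; limma, Benjamini-Hochberg adjusted p = 0.00606). Bms1, which encodes a GTPase of the particle, had 307 and 278 TPM in the SAFB RIP, against 58.6 and 52.2 TPM in the IgG RIP (2.38 ± 0.12, SE). Imp4, whose product helps U3 to pair with its target, was the gene that passed as lower, at 20.1 and 19.4 TPM in the SAFB RIP, against 34.1 and 33.5 TPM in the IgG RIP (-0.75 ± 0.17, SE; adjusted p = 0.0318). Pdcd11 passed as higher at 0.56 and no longer passed after median centring, at 0.10. Emg1, an rRNA methyltransferase gene, did not pass at -0.51 and passed as lower after median centring, at -0.97.

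Genes for proteins of the major spliceosome moved in both directions. Of 10 tested genes for U1 particle proteins 5 passed as higher and 0 as lower, with a median of 0.42, against 2 higher and 4 lower after median centring. Luc7l2 passed as higher at 1.44 ± 0.12 (SE; limma, Benjamini-Hochberg adjusted p = 0.00520). Snrnp70, which encodes the protein that grips the first stem loop of U1, had 260 and 322 TPM in the SAFB RIP, against 440 and 368 TPM in the IgG RIP, and did not pass as deposited, at -0.47. Tia1, at 0.03, did not pass either. After median centring both passed as lower. Of 16 tested genes for U2 particle proteins 7 passed as higher and 3 as lower, with a median of 0.23, against 5 and 4 after median centring. Snrpb2, for a protein bound to U2 itself, had 51.3 and 52.1 TPM in the SAFB RIP, against 12.5 and 5.32 TPM in the IgG RIP (2.51 ± 0.41, SE; adjusted p = 0.0148). Sf3b1, for the protein that holds the branch point helix, passed as higher at 1.14 ± 0.10 and Sf3b2 at 0.61 ± 0.12, which did not pass after median centring. Sf3b4 passed as lower at -0.93 ± 0.21 and U2af2, for the factor that binds the polypyrimidine tract, at -0.49 ± 0.12.

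Of 12 tested minor spliceosome genes 4 passed as higher and 1 as lower, with a median of 0.59, against 3 and 2 after median centring. Zrsr1 had 13.2 and 12.5 TPM in the SAFB RIP, against 0.749 and 1.75 TPM in the IgG RIP (2.66 ± 0.38, SE; limma, Benjamini-Hochberg adjusted p = 0.0116), and Snrnp48, for a protein of the U11 and U12 particle, passed as lower at -0.60 ± 0.15 (adjusted p = 0.0351). Zcrb1 passed as higher at 0.67 ± 0.11, but not after median centring. Ccdc84 did not pass, at -0.43. Of 8 tested Sm protein genes 0 passed as higher and 1 as lower, with the same counts after median centring and a median of 0.21. The gene that passed was Snrpb, for SmB, at 59.6 and 57.7 TPM in the SAFB RIP, against 121 and 143 TPM in the IgG RIP (-1.15 ± 0.13, SE; adjusted p = 0.00777). Snrpd2, at 0.17, and Snrpg, at 1.02, did not pass.

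Of 25 tested genes for the transcription and 3′ end processing of snRNAs 9 passed as higher and 1 as lower, with a median of -0.01, against 4 and 8 after median centring. Ice1, for a subunit of the little elongation complex that serves snRNA genes, had 214 and 222 TPM in the SAFB RIP, against 58.7 and 53.3 TPM in the IgG RIP (1.95 ± 0.11, SE; limma, Benjamini-Hochberg adjusted p = 0.00378). Ints1, for a subunit of the Integrator complex that cleaves the snRNA 3′ end, had 36.1 and 41.7 TPM in the SAFB RIP, against 89.6 and 85.6 TPM in the IgG RIP (-1.15 ± 0.14, SE; adjusted p = 0.00819). Zc3h8, also of the little elongation complex, had 9.41 and 6.80 TPM in the SAFB RIP and was listed at 0 in both IgG libraries, so that its call as higher was reached only through the SAFB libraries. Ints4 and Snapc4 did not pass, at -0.11 and -0.38. Of 23 tested genes for maturation and export 10 passed as higher and 0 as lower, with a median of 0.93, against 8 and 1 after median centring. Larp7, for the protein that binds 7SK and promotes U6 modification, had 41.4 and 33.9 TPM in the SAFB RIP, against 2.59 and 5.35 TPM in the IgG RIP (3.01 ± 0.38, SE; adjusted p = 0.00928). Nolc1, for a phosphoprotein of the nucleolus and Cajal bodies, had 215 and 196 TPM in the SAFB RIP, against 44.7 and 47.7 TPM in the IgG RIP (2.13 ± 0.11, SE; adjusted p = 0.00378). Clns1a, at 0.04, and Strap, at 0.31, did not pass.

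**Figure D5:**
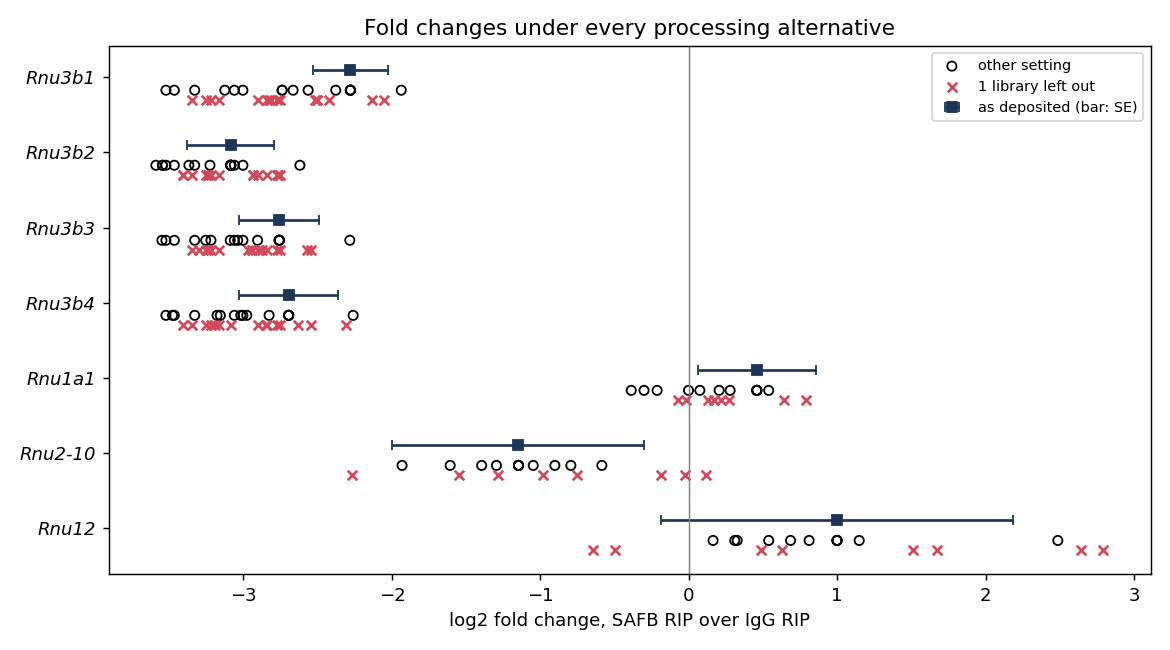
Log2 fold change of the SAFB RIP over the IgG RIP (horizontal axis) for the 7 entries tested, as deposited (square, bar for the SE), with 1 library left out (crosses) and under the other settings, sums over copies included (circles). The U3 entries stay between -1.94 and -3.59 in every setting, while Rnu12 and Rnu1a1 have values on both sides of 0. Rnu2-10 rises above 0 only as the sum of its copies.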

How the data were processed

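Per the labels' protocols, RNA precipitated from AML12 nuclei went through DNase and removal of rRNA before stranded libraries were built. TPM values for the 4 libraries stand in a single table that the authors deposited. HISAT2, StringTie, HTSeq and DESeq2 are listed in the submitters' processing notes, with the build mm10. The labels do not say which program computed TPM, nor the annotation release, the use of strand or the treatment of reads that match several copies, and the last bears directly on U1, U2 and U3. Libraries were grouped by title. Rows with a repeated identifier were summed (6 identifiers), and 52042 identifiers matched GENCODE M21.

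Genes that reached 1 TPM in 2 or more libraries were fitted as log2(TPM + 1) with limma 3.58.1 in R 4.3.3 (variance trend, 2 residual and 2.5 prior degrees of freedom) and adjusted over all genes tested by the Benjamini-Hochberg method at 0.05. The procedure was tested on simulated data. Errors of means are SD and errors of fold changes SE. Copies were found with blastn 2.17.0. Members and lists were chosen with earlier results of these data known. The text names all members, up to 3 genes per list with the highest mean TPM, and the most changed gene that passed in each direction. One gene that this rule names is not reported here. In all, 32 alternatives were run, of which 14 were planned and 18 added after seeing the data.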

Additional observations from a re-analysis of the deposited data

How the results depend on the processing

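U3 stayed lower and past the threshold in all 32 alternatives, as 4 separate copies in 19 of them and merged into 1 entry in the other 13. With 1 library left out and entries as deposited, the log2 fold changes ranged from -2.50 to -2.06 for Rnu3b1, -3.41 to -2.76 for Rnu3b2, -2.97 to -2.55 for Rnu3b3 and -3.08 to -2.31 for Rnu3b4. The snRNAs were less steady. Rnu1a1 and Rnu12 changed sign between settings, while Rnu2-10 stayed below 0 as its own entry and changed sign only as the sum of its copies. Rnu1a1 stood at -0.00169 after median centring and -0.21 after quantile normalization, and the sum of U1 copies at -0.39 and -0.30 in these settings, -0.0202 with the second SAFB RIP library left out and -0.0700 without the first IgG RIP library. With 1 library left out Rnu1a1 ranged from 0.13 to 0.79, Rnu2-10 from -2.27 to -0.0287 and Rnu12 from -0.64 to 2.64. The summed copies of U2 ranged from -1.28 without IgG RIP replicate 1 to 0.11 without IgG RIP replicate 2, and those of U12 from 2.79 to -0.50 in the same settings. The chosen entries that passed as lower numbered 4 to 5 and those that passed as higher 0 to 1 with 1 library left out. With sequence copies or U3 copies summed and IgG RIP replicate 1 left out, 2 passed as lower and 1 as higher. U3 relative to Rnu1a1 was -2.94 with Rnu3b1 alone, and -4.21 to -3.09 with 1 library left out, against -2.88 to -0.69 relative to Rnu2-10. Over all genes 6346 passed (4964 higher, 1382 lower; 2758 and 2986 after quantile normalization, 3537 and 2250 after rescaling to protein-coding genes), and 2605 to 10412 with 1 library left out (2592, 3064 and 10409 with sequence copies summed, 2606, 3080 and 10412 with both models of each U3 copy summed, and 2595, 3068 and 10407 with all U3 copies summed). With the replicate number as a block 6061 passed and no call among the chosen entries changed; same-numbered libraries deviated with a correlation of -0.02, so the numbers were not taken to pair them. The cause of these shifts was not tested. The unknown depth limits every value near 0, those of Rnu11 and Rnu12 first.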

Other observations

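Several further noncoding RNAs related to this set were near the lower end of the table. Rnu5g, a gene for U5, was listed at 1.04 and 0.448 TPM in the SAFB RIP and at 0 in both IgG libraries. Rnu7, the gene for the U7 RNA of histone mRNA 3′ end processing, was at 0.417 and 0.590 TPM in the SAFB RIP and 0.415 and 0.739 TPM in the IgG RIP. Snord118, the U8 RNA, was listed at 2.01 TPM in SAFB RIP replicate 1 and at 0 elsewhere, and Rnu1b1, Rnu1b2 and Rnu1b6 were listed at 0 in all 4 libraries. The snRNA class of the annotation, with 156 genes tested, had 30.1% called higher and 1.28% lower (limma, Benjamini-Hochberg threshold of 0.05), against 29.8% and 8.30% of all genes tested. The share called higher was thus that of all genes, while the share called lower was smaller. The median log2 fold change of the class was 1.02, against 0.46 over all genes tested. Entries at 0 in both IgG libraries, such as Rnu6, reach the filter only through the SAFB libraries. Their fold change can then only be positive, so the class values are a description. Of 271 snoRNA genes, 14.8% were called higher and 9.59% lower, with a median log2 fold change of 0.055. The summed TPM of the snRNA class was 2392 and 2321 in the SAFB RIP, against 737 and 946 in the IgG RIP, of which the summed U1 and U2 copies given in the report were a small part. The snoRNA class summed to 4157 and 4095 TPM in the SAFB RIP, against 4400 and 6557 TPM in the IgG RIP.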
